A study of Mus musculus with 12 samples.

Results

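Liver mRNA of the Eif genes, which encode the translation initiation factors and the proteins that regulate them, was compared between mice with and without hepatocyte Phgdh. A gene was a member when the RefSeq accession of a non-control array probe matched a gene symbol starting with Eif. This gave 55 Eif genes with 77 probes, of 32524 genes and unnamed transcripts with 39429 probes on the array. Signal was well above background on all 12 arrays for 53 of the 55 Eif genes, and these were tested together with all other genes that met the same condition, 16916 in total. The members fell into the Eif1 and Eif2 genes (16 with a probe), the Eif2ak kinases (4), Eif3 (13), Eif4 (17) and Eif5 and Eif6 (5).

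Phgdh encodes the enzyme that starts serine synthesis from a glycolytic intermediate. All mice were male C57BL/6 littermates aged 30 weeks on chow with 20% casein, and all were homozygous for the floxed Phgdh allele (Phgdh flox/flox). The 6 LKO mice also carried Cre under the albumin promoter (Alb-Cre), which removes the fourth and the fifth exon in hepatocytes only, so that the other cells of their livers kept Phgdh. The 6 Floxed mice had no Cre, so a mouse with Cre and unfloxed Phgdh was not among the controls. Total RNA of each liver was hybridized to a single-color Agilent array, and the values below are log2 intensities, quantile normalized over the arrays, so that a difference of 1 is a doubling. Because whole liver was measured, fewer cells of a type and less RNA per cell cannot be told apart.

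Initiation begins when eIF2 brings the initiator tRNA to the small ribosomal subunit, a step that eIF1, eIF1A and the many-subunit eIF3 assist. The eIF4F complex, made of the cap-binding protein eIF4E, the helicase eIF4A and the scaffold eIF4G, then loads mRNA. Control is mostly exerted on the proteins. The Eif2ak kinases phosphorylate eIF2 and so block its recharging by eIF2B, and the Eif4ebp proteins sequester eIF4E until mTOR phosphorylates them. The arrays measured mRNA and none of these protein states. Many mRNAs of the translation machinery start with a cytosine and a run of pyrimidines, the feature through which mTOR controls their translation.

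To show that feature, 30 bases around the transcription start were taken from RefSeq (GRCm38.p6) for the 2 tested Eif genes whose annotated start has a C followed by at least 4 bases that are C or T, and for Eif5a2, the single member that passed the test described next. Each is written 5′ to 3′ on the gene's strand, with 20 bases upstream in lower case and the first 10 transcribed bases in capitals.
Eif2s3x, X chromosome, chrX:94212642-94212671, minus strand: ggcggctgccgagcattttcCTTTTCTCTC
Eif3f, chromosome 7, chr7:108934395-108934424, plus strand: gctcttctgttctaggctctCTCTCTTTCT
Eif5a2, chromosome 3, chr3:28781257-28781286, plus strand: ggcggggcgggcccgggctgGGCGGGCCGG
The last 10 bases of each window belong to the first exon. Of the 43 tested Eif genes with a RefSeq window, 2 (4.65%) had the pyrimidine start, against 813 of 27025 genes (3.01%). The 27025 were all genes with a window, tested in these livers or not, so the 2 shares come from unlike sets of genes. Their difference was not tested. The search read the annotated first bases on the gene's strand only, and a start annotated a few bases away would be missed.

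Before the results, the labels were checked against Phgdh itself. Phgdh read 5.19, 5.50, 5.10, 4.81, 5.15 and 5.33 in Floxed mice 1 to 6 and 5.07, 5.30, 4.66, 4.23, 4.47 and 4.46 in LKO mice 1 to 6. The libraries labelled LKO 1 and LKO 2 thus lay within the Floxed range, while LKO 3 to 6 lay below it. The mean difference was -0.48 (SE 0.18, n = 6 and 6), with an unadjusted limma p of 0.0179 and a Benjamini-Hochberg adjusted limma p of 0.451. Phgdh was itself dim, with means of 5.18 in Floxed and 4.70 in LKO mice. It was among the dimmest 20% of genes tested, where calls were denser, so this label check rests on a weak signal. Whether the Phgdh probe covers the deleted exons was not analysed here. The arrays lay on 3 slides of 4, slide 1 with Floxed 1 to 4, slide 2 with Floxed 5 and 6 and LKO 1 and 2, and slide 3 with LKO 3 to 6. On slide 2, the only slide with both genotypes, the Phgdh difference was -0.055. Genotype was therefore nearly the same split as slide, and slide 2 values, or values without LKO 1 and LKO 2, are given beside the results that turn on them.

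The Eif genes as a group differed little between LKO and Floxed livers. Of the 53 tested, 1 had an unadjusted limma p under 0.05, the criterion in the study's array methods. It was Eif5a2, which was higher in LKO mice. That is 1.89% of the members, beside 8.35% of all 16916 genes (1413, of which 832 or 4.92% were higher and 581 or 3.43% lower). The share of higher calls over all genes was 58.9%, and it was 78.1% when arrays were scaled to the 75th percentile instead. Calls were denser among dim genes, of which the members had few. With the dimmest 20% of genes left out, the background was 5.54% and the members had 1 call among 52. After Benjamini-Hochberg adjustment in limma, 0 of all genes (0%) and 0 of the Eif genes were called, against 1413 and 1 at the unadjusted threshold, and the members' adjusted p-values ran from 0.533 to 0.998. The Floxed and LKO ranges overlapped for all 53 Eif genes, where 0.296% of all genes had ranges that did not.

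The direction was split, with 28 Eif genes above 0 and 25 below, and the median difference was 0.0049 on the log2 scale, beside -0.0035 for all genes tested. A difference under 0.1 in either direction (1.07-fold) was found for 39 Eif genes (73.6%) and for 54.5% of all genes. For 46 of the 53 members (86.8%), the whole 95% confidence interval lay within 0.5 of 0 (1.41-fold), as it did for 70.1% of all genes and 78.1% of those that were not among the dimmest 20%. The 7 exceptions were Eif2s3y, Eif2ak3, Eif4e3, Eif4ebp3, Eif4g2, Eif5 and Eif5a2. With the slide as a block, the members' median was -0.03 and 14 of 53 lay above 0 (26.4%), against 54.6% of all genes. The intervals were then wider, and 32 of the 53 (60.4%), against 34.1% of all genes, lay within 0.5 of 0.

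**Figure D1:**
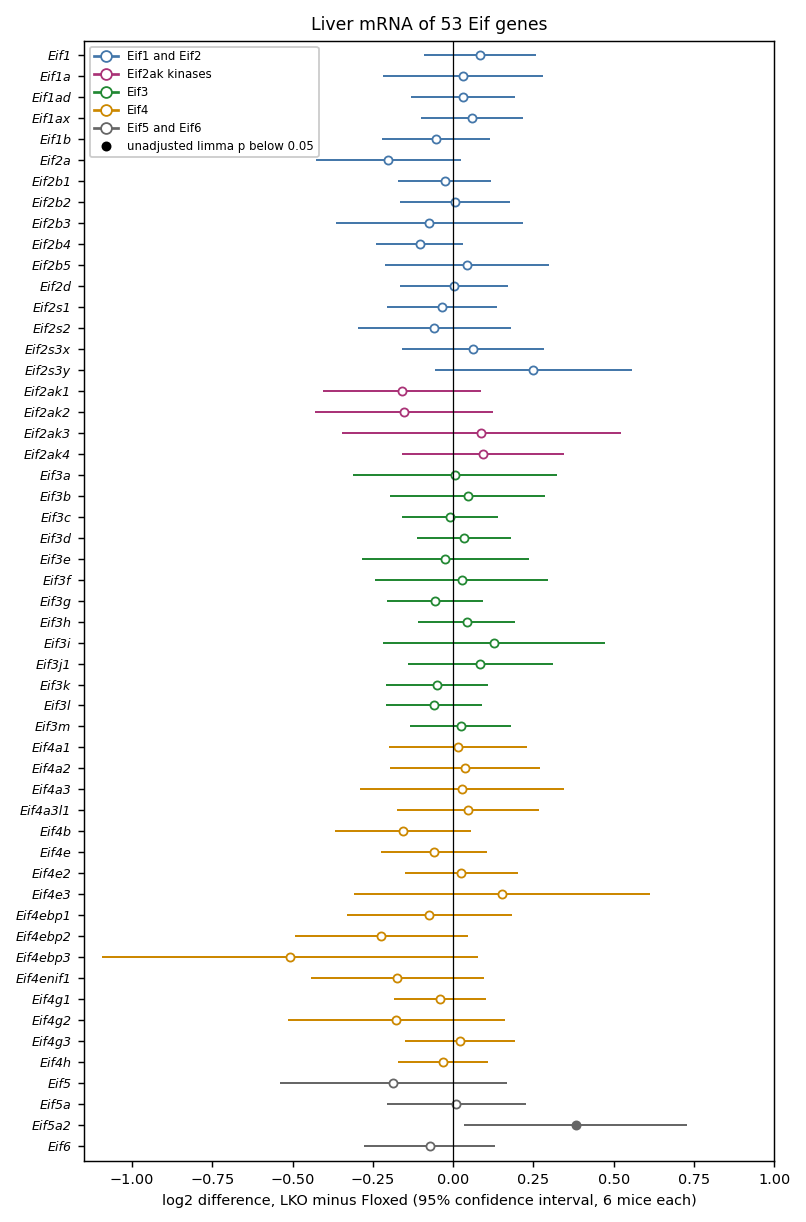
Log2 difference, LKO minus Floxed, with its 95% confidence interval for each of the 53 tested Eif genes, colored by subgroup (6 mice per genotype). Only the interval of Eif5a2, drawn with a filled point, lies wholly on one side of 0, and the intervals of all 13 Eif3 genes stay within 0.5 of 0.

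Eif5a2 encodes an isoform of eIF5A, the hypusine-bearing factor that helps ribosomes over difficult peptide bonds. Its log2 intensity was 9.05, 8.91, 8.53, 8.34, 8.74 and 8.69 in Floxed mice 1 to 6, and 8.73, 8.75, 9.29, 9.05, 9.60 and 9.13 in LKO mice 1 to 6. LKO 1 and LKO 2 lay among the Floxed mice, LKO 3, 5 and 6 lay above every Floxed mouse, and LKO 4 was level with the highest of them, Floxed 1. The mean rose by 0.38 (SE 0.16, 1.30-fold with a 95% confidence interval of 1.03 to 1.65), with an unadjusted limma p of 0.032, an adjusted limma p of 0.533 and a two-sided exact permutation p of 0.0476 over 924 arrangements. Leaving out any 1 of Floxed 3, 4 or 6 or LKO 3, 5 or 6 took the limma p above 0.05, with differences of 0.28 to 0.38. With same-numbered mice as a block, the limma p was 0.0645. The higher values were those of slide 3. On slide 2 the difference was 0.03, the limma p with the slide as a block was 0.904, and within the LKO group the slide 3 mice averaged 0.52 above the slide 2 mice. Without LKO 1 and LKO 2, which leaves LKO mice of slide 3 only, the difference was 0.56 (limma p of 0.00383, adjusted limma p of 0.0865). In that comparison 12.8% of all genes and 2 Eif genes passed the unadjusted threshold, the other being Eif2a.

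Another measurement moved with the same mice. Pecam1, an endothelial marker, was 0.70 higher in LKO mice (limma p of 0.0015, adjusted limma p of 0.273) and 0.04 higher on slide 2. It was the only one of 6 sinusoidal endothelial markers called. The others differed by 0.14 (Stab2), 0.065 (Kdr), 0.055 (Clec4g), -0.01 (Oit3) and -0.13 (Lyve1). Summed linear intensity of the 6 ran from 15590 to 18250 in Floxed and from 15480 to 23370 in LKO mice. Pecam1 was far dimmer (Floxed mean 5.64) than Clec4g (13.18) and Kdr (12.37), so the sum says little about Pecam1. The part of Pecam1 in the Eif5a2 result was not tested. Hepatocyte markers gave 0 calls among 8, with summed intensities of 1197000 to 1289000 and 1196000 to 1319000, and these markers, Alb among them, were well above background in all mice, as the tissue label requires. Of 6 pancreatic acinar markers, Cpa1, Prss2 and Pnlip were well above background on none of the arrays and Cela3b on 1. Ctrb1 and Cela1 were well above background on all 12 arrays, and neither was called. Their medians were 8.67 and 4.46 in Floxed mice and 8.83 and 4.12 in LKO mice. Kupffer cell (7 tested), stellate cell (7), lymphocyte (4) and erythroid (3) markers gave 0 calls.

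The other tested genes of the subgroup were not called. Eif5a, the main isoform in most tissues, ranged from 12.19 to 12.79 (median 12.62) in Floxed mice and from 12.46 to 12.71 (median 12.59) in LKO mice, a difference of 0.01 with a 95% confidence interval of -0.20 to 0.22. The difference between the Eif5a and Eif5a2 changes was not tested. Eif6, which keeps the large ribosomal subunit from joining too early, differed by -0.07 (SE 0.09). Eif5 encodes the factor that triggers GTP hydrolysis by eIF2 once the start codon is found. It ran from 12.28 to 12.75 (median 12.37) in Floxed and from 11.65 to 12.71 (median 12.23) in LKO mice, the LKO range being the wider. Its difference was -0.19 (SE 0.16, limma p of 0.271) and 0.07 on slide 2. It was -0.37 with normexp, another background correction (limma p of 0.087), and a second Eif5 probe gave -0.39 (SE 0.20, limma p of 0.0792). Eif5b, the GTPase that joins the subunits, had signal well above background in 2 Floxed and 3 LKO mice only and was not tested.

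**Figure D2:**
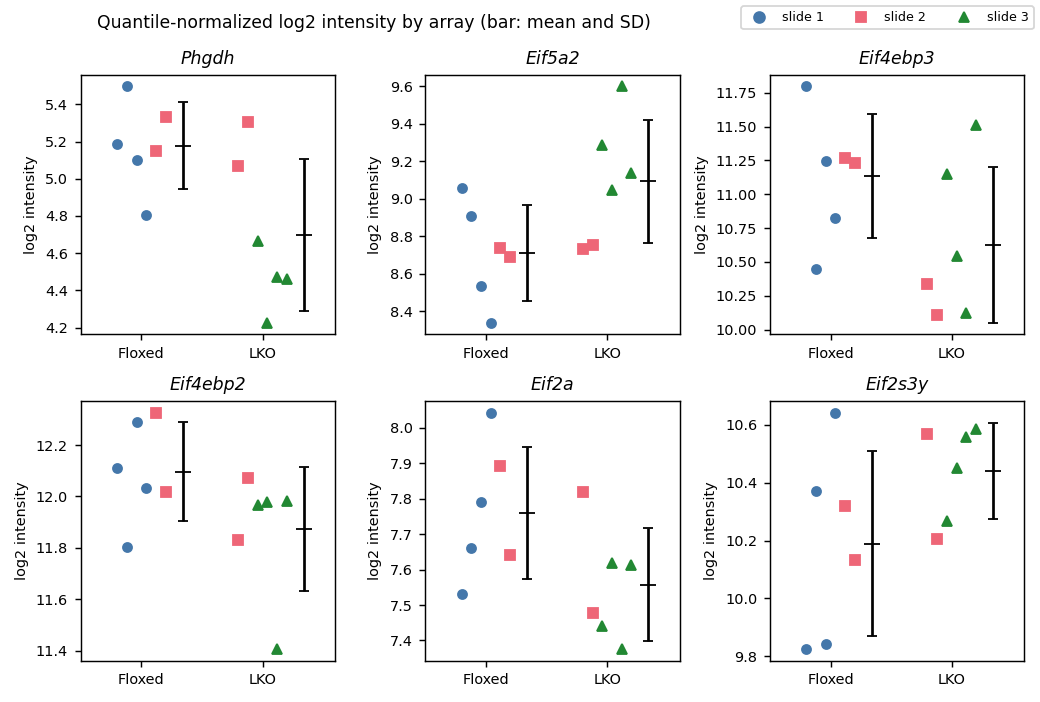
Quantile-normalized log2 intensity of Phgdh and 5 Eif genes in each mouse, marked by slide, with the mean and SD (n = 6) of each genotype as bars. For Phgdh and Eif5a2 the slide 2 squares of both genotypes lie together, whereas for Eif4ebp3 the slide 2 LKO squares (10.34 and 10.11) lie below the slide 2 Floxed squares (11.26 and 11.23).

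Among the Eif4 genes, 0 of 16 passed the test, and the differences ran from -0.51 (Eif4ebp3) to 0.15 (Eif4e3), with a median of -0.04. The parts of the cap-binding complex held close to 0. Eif4e, the cap-binding protein, read 9.59 to 9.87 (median 9.67) in Floxed and 9.54 to 9.75 (median 9.66) in LKO mice, a difference of -0.06 (95% confidence interval -0.22 to 0.10). Eif4g1, the scaffold, differed by -0.04 (-0.18 to 0.10), and Eif4a1, the helicase, by 0.01 (-0.20 to 0.23). The genotypes overlapped for each of these genes. Eif4a1, Eif4a2, Eif4a3 and Eif4a3l1 all had differences between 0.01 and 0.05. On slide 2 they were at -0.10, 0.004, -0.14 and 0.04 in that order, and a second Eif4a2 probe gave -0.10 over all mice. Eif4b, a helicase partner, differed by -0.16 (SE 0.10, limma p of 0.132), and its other probes by -0.11 and -0.13. Without Floxed 4 the difference was -0.21 (limma p of 0.0341). Eif4g2, which encodes a scaffold that lacks the eIF4E-binding region, differed by -0.18 (SE 0.15, limma p of 0.273). Eif4e1b was well above background on 0 arrays with either of its probes.

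The 3 Eif4ebp genes, which encode the inhibitors of eIF4E, all lay below 0, and none passed the test over all mice. All 3 stayed below 0 with arrays scaled to the 75th percentile and with normexp, but Eif4ebp1 was at 0.02 on slide 2. Eif4ebp3 read 11.80, 10.45, 11.25, 10.83, 11.26 and 11.23 in Floxed mice 1 to 6 and 10.34, 10.11, 11.15, 10.54, 10.13 and 11.51 in LKO mice 1 to 6. The groups overlapped, since Floxed 2 sat among the 4 low LKO mice, LKO 6 sat above all Floxed mice but Floxed 1, and LKO 3 sat between Floxed 4 and Floxed 6. The difference was -0.51 (SE 0.27, 95% confidence interval -1.09 to 0.07), with a limma p of 0.0823, an adjusted limma p of 0.696 and a two-sided exact permutation p of 0.117. Without Floxed 2, LKO 3 or LKO 6 in turn, it was -0.64, -0.61 and -0.68, each with a limma p under 0.05.

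Eif4ebp3 was the only member called with the slide as a block. On slide 2, both LKO mice lay below both Floxed mice, by -1.03 on average, and the blocked limma p was 0.0445, adjusted over all genes to 1, where 1.87% of all genes were called. Without LKO 1 and LKO 2 the difference was -0.30 (limma p of 0.323), so the value leaned on the mice whose Phgdh lay in the Floxed range. A cholangiocyte marker, Cftr, was also lower in the LKO group, with -0.83 over all mice (limma p of 0.0471) and -1.49 on slide 2, while Krt19 differed by 0.11 and by 0.07 on slide 2. Beside the Eif4ebp3 values above, Cftr read 8.96, 8.50, 9.91, 10.33, 10.10 and 10.01 in Floxed mice 1 to 6. In LKO mice 1 to 6 Cftr read 8.47, 8.67, 8.73, 8.25, 10.28 and 8.44. Cftr and Krt19 were the only 2 of 5 cholangiocyte markers tested, their summed intensity ran from 398.9 to 1326 in Floxed and from 354 to 1282 in LKO mice, and their part in the Eif4ebp3 result was not tested.

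Eif4ebp2, the isoform best known from brain, read 11.80 to 12.33 (median 12.07) in Floxed and 11.41 to 12.07 (median 11.97) in LKO mice. LKO 5 alone was far below the rest. The difference was -0.22 (SE 0.12, limma p of 0.0918) and was the same, -0.22, on slide 2, and without Floxed 2 it was -0.28 (limma p of 0.0377). Eif4ebp1, the main mTOR target of the family, differed by -0.07 (SE 0.12, limma p of 0.54). Eif4e3, a variant cap-binding protein, had the highest value of the subgroup at 0.15 (SE 0.21), with medians of 4.92 in Floxed and 5.13 in LKO mice and a single high value of 6.03 in Floxed 6, without which it was 0.34 (limma p of 0.034), and on slide 2 it was -0.14.

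The Eif3 genes had the narrowest range of the 5 subgroups. None of the 13 passed the test, the differences ran from -0.06 (Eif3l) to 0.13 (Eif3i), and 12 of 13 lay within 0.1 of 0. The median was 0.02 and became -0.01 with normexp and -0.05 with the slide as a block, so no direction held. Eif3a, the scaffold of the complex, read 8.92 to 9.53 (median 9.13) in Floxed and 8.92 to 9.54 (median 9.21) in LKO mice, a difference of 0.01 (-0.31 to 0.32). Eif3b, a second core subunit, differed by 0.05 (-0.19 to 0.28). Eif3i read 9.56 to 10.68 (median 10.42) in Floxed and 10.31 to 10.66 (median 10.44) in LKO mice, and its positive mean difference of 0.13 (SE 0.16) came with a single low mouse, Floxed 1, without which it was -0.03, and on slide 2 it was -0.08. Eif3l differed by -0.06 (SE 0.07). Eif3f, whose pyrimidine start is printed above, differed by 0.03 (SE 0.12).

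None of the 16 Eif1 and Eif2 genes passed the test. Eif1, which guards start codon choice, read 14.12 to 14.50 (median 14.34) in Floxed and 14.33 to 14.53 (median 14.36) in LKO mice, a difference of 0.08 (-0.09 to 0.26) and of -0.05 on slide 2. The subunits of eIF2 itself did not move together. Eif2s1, the alpha subunit that the kinases phosphorylate, differed by -0.03 (-0.20 to 0.13), Eif2s2, the beta subunit, by -0.06 (-0.29 to 0.18), and Eif2s3x, the X-linked gamma subunit, by 0.06 (-0.16 to 0.28).

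Eif2s3y, the Y-linked gamma subunit, had the highest difference of the subgroup. It was well above background in all 12 mice, as in males, and read 9.82, 10.37, 9.84, 10.64, 10.32 and 10.13 in Floxed mice 1 to 6 and 10.57, 10.21, 10.27, 10.45, 10.56 and 10.59 in LKO mice 1 to 6. Every LKO mouse lay inside the Floxed range, whose low end was set by Floxed 1 and Floxed 3. The difference was 0.25 (SE 0.14, limma p of 0.0969, two-sided exact permutation p of 0.126), and 0.34 without Floxed 4 (limma p of 0.0187). Eif2a, which encodes an initiator tRNA-binding protein distinct from eIF2, had the lowest difference. It read 7.53 to 8.04 (median 7.73) in Floxed and 7.38 to 7.82 (median 7.55) in LKO mice, and differed by -0.20 (SE 0.10, limma p of 0.0718), by -0.12 on slide 2 and by -0.25 without LKO 1 and LKO 2 (limma p of 0.0488). It also passed without Floxed 1 alone (-0.25) or LKO 1 alone (-0.25).

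The 5 subunits of eIF2B, the exchange factor that recharges eIF2, lay between -0.10 (Eif2b4) and 0.04 (Eif2b5). Eif2b5, the catalytic subunit, read 8.86 to 9.51 (median 9.35) in Floxed and 9.02 to 9.47 (median 9.32) in LKO mice (difference 0.04, SE 0.12). Eif2b4 stood out for its small spread. It read 12.42 to 12.54 in Floxed and 12.27 to 12.44 in LKO mice, with a two-sided exact permutation p of 0.0108 and a limma p of 0.116, since limma draws small variances toward those of other genes. On slide 2 the Eif2b4 difference was -0.03.

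None of the 4 eIF2 kinases passed the test. Eif2ak4 encodes GCN2, which uncharged tRNA activates when amino acids run short, and Eif2ak3 encodes PERK, which responds to misfolded protein in the endoplasmic reticulum. Eif2ak4 read 7.28 to 7.99 (median 7.74) in Floxed and 7.56 to 7.98 (median 7.85) in LKO mice, a difference of 0.09 (-0.16 to 0.34) and of -0.01 on slide 2. Eif2ak3 read 7.38 to 8.60 (median 8.01) and 7.58 to 8.34 (median 8.23), a difference of 0.09 with the widest interval of the 4 (-0.34 to 0.52), and -0.31 on slide 2. Eif2ak1, the heme-regulated kinase, differed by -0.16 (-0.40 to 0.08) and by 0.15 on slide 2. Eif2ak2, the kinase that double-stranded RNA activates, differed by -0.15 (-0.43 to 0.12) and by -0.03 on slide 2. Without LKO 1 and LKO 2, the differences of Eif2ak1 and Eif2ak2 were -0.25 (limma p of 0.0561) and -0.28 (limma p of 0.0517). That comparison leaves LKO mice of slide 3 only, and 12.8% of all genes passed the unadjusted threshold in it. Within the LKO group, slide 3 minus slide 2 was -0.27 for Eif2ak1 and -0.38 for Eif2ak2.

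**Figure D3:**
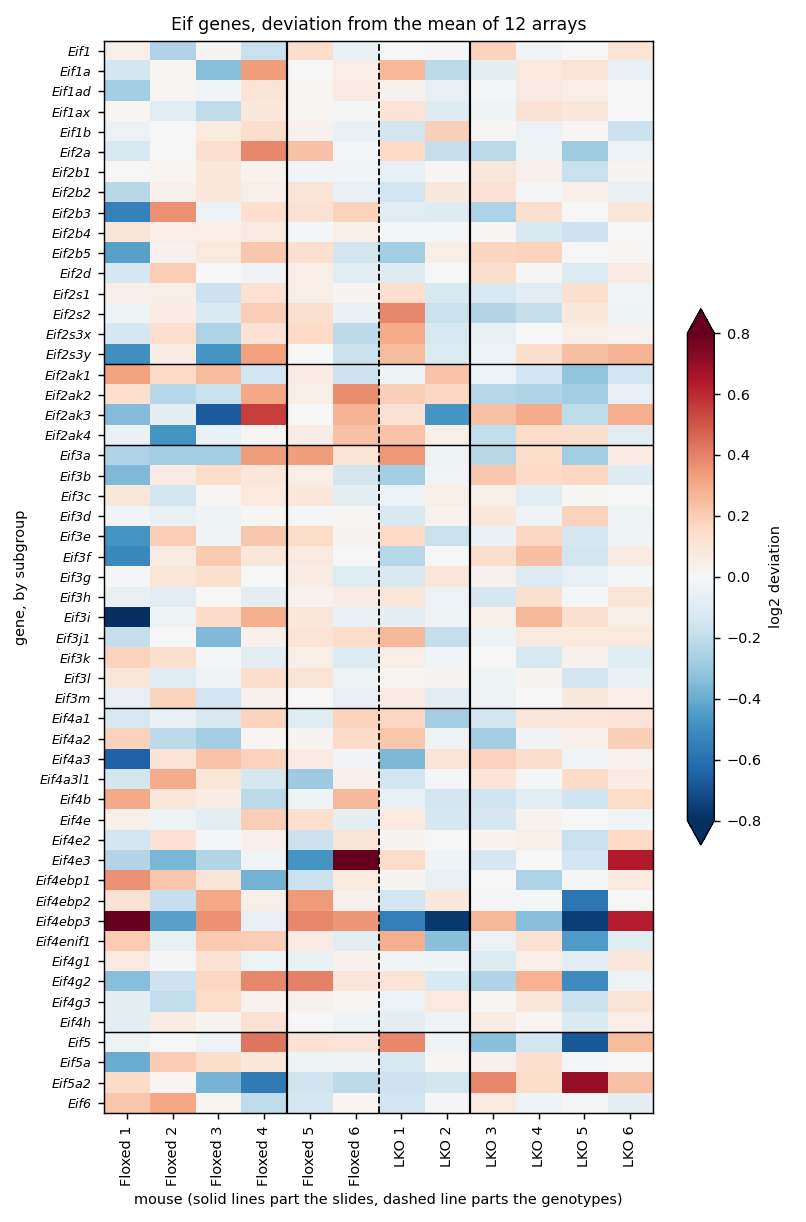
Deviation of each mouse from the mean of the 12 arrays for the 53 Eif genes (log2, color scale from -0.8 to 0.8), with genes ordered by subgroup and mice by slide. Floxed 1 is low for Eif3i, Eif3f and Eif4a3 and LKO 5 for Eif5, Eif4g2 and Eif4ebp2, Eif4ebp3 has strong colors in mice of both genotypes, and no subgroup changes color as a block between genotypes.

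For most Eif genes the spread among mice was larger than the genotype difference. The median SD of an Eif gene was 0.187 over Floxed and 0.131 over LKO mice, against a median absolute genotype difference of 0.06 (0.215, 0.207 and 0.088 over all genes). The difference exceeded both SDs for 3 members (5.66%), Eif5a2, Eif2a and Eif2b4, and for 1695 of all genes (10%). LKO 5 was the lowest of all mice for 13 of the 53 Eif genes (24.5%), as it was for 17.0% of all genes, and Floxed 1 was the lowest for 12 (22.6%), against 11.8% of all genes. Without Floxed 1 the members' median difference was -0.03 and 17 of 53 (32.1%) lay above 0, against 48.9% of all genes.

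For 18 Eif genes a second probe met the same condition, and these 20 other probes mostly gave similar differences. The median gap between the differences of 2 probes of a gene was 0.0614, and 8 of the 20 had the opposite sign, all in genes whose representing probe lay within 0.1 of 0. A gap over 0.2 was found for Eif2s1, Eif4e2, Eif4g3 and Eif5. The widest, 0.441, was for Eif2s1, whose other probe gave -0.47 (SE 0.20, limma p of 0.0338 in a fit over probes) where the probe representing the gene gave -0.03. On slide 2 that other Eif2s1 probe differed by 0.04, with a limma p of 0.866 with the slide as a block. It was the only one of the 20 other probes called over all mice. In that fit over probes, 1743 of the 20404 kept probes had a call. Probe sequences were not used here, so close relatives such as Eif2s3x and Eif2s3y, or Eif4a3 and Eif4a3l1, could share signal.

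**Figure D4:**
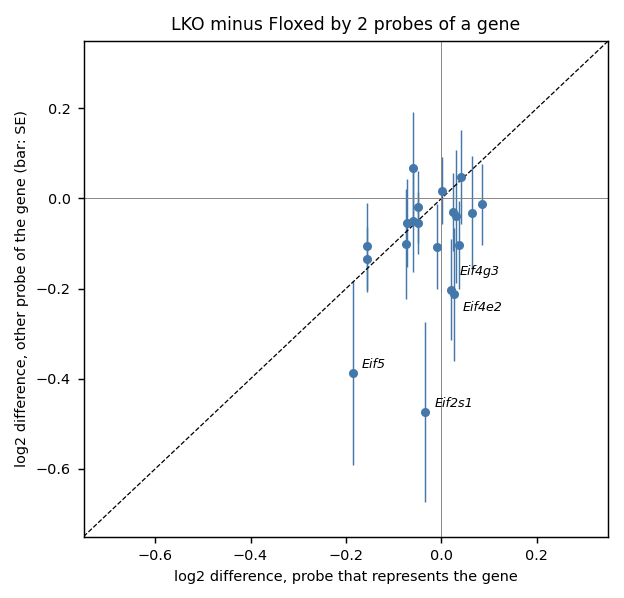
Log2 difference, LKO minus Floxed, of the probe that represents a gene (horizontal) and of each further probe of the same gene (vertical, bars are the SE), with equality as a dashed line, for 20 probes of 18 Eif genes. Most points lie near the line around 0, and the Eif2s1 probe at -0.47 lies farthest from it.

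Few other genes of translation were called, where 8.35% of all genes were. More of them lay below 0 than above, while 48.8% of all genes lay above 0. The difference between these lists and the Eif genes was not tested. None of 8 tested elongation factors was called (-0.20 for Eef1e1 to 0.02 for Eefsec, 2 above 0), nor any of 5 termination and recycling factors (-0.24 for Pelo to 0.09 for Hbs1l, 1 above 0). The list of poly(A) tail-binding proteins and their partners held 5 genes, Pabpc1, Pabpc4, Paip1, Paip2 and Paip2b. These 5 had 0 calls and lay from -0.20 (Pabpc1) to below 0 (Paip2b). With normexp 2 of the 5 were above 0, and 1 was with arrays scaled to the 75th percentile. Of 20 other regulators of initiation, 1 was called and 8 lay above 0. Mknk1, whose kinase phosphorylates eIF4E, read 7.62, 7.55, 7.91, 7.94, 7.86 and 7.83 in Floxed mice 1 to 6 and 7.10, 7.17, 7.56, 7.06, 8.13 and 7.32 in LKO mice 1 to 6. LKO 5 was above every Floxed mouse, LKO 3 was level with the lowest of them, and the other 4 LKO mice were below. The mean difference was -0.40 (SE 0.17, limma p of 0.0327, adjusted limma p of 0.537), and -0.71 on slide 2. Mtor differed by -0.10 (SE 0.11), and Mknk2, the sister kinase, by 0.08 (SE 0.20) and by -0.54 on slide 2.

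Phosphorylated eIF2 raises the translation of Atf4, whose targets serve as an mRNA readout of the kinases. Of 17 tested genes of this response, 3 were called (17.6%, beside 8.35% of all genes), and in both directions. With the slide as a block, 1 of the 17 was called, Asns (limma p of 0.0142), where 1.87% of all genes were. Asns, which makes asparagine, ran from 6.03 to 8.07 (median 7.09) in Floxed and from 4.64 to 8.21 (median 5.53) in LKO mice, with LKO 6 above every Floxed mouse. It was lower by -1.18 (SE 0.54, limma p of 0.0484) and by -2.45 on slide 2. Mthfd2, a mitochondrial folate enzyme, was lower by -0.34 (limma p of 0.0216), with -0.18 on slide 2 and a blocked limma p of 0.45. Its means were 4.48 in Floxed and 4.15 in LKO mice, among the dimmest 20% of genes, where calls were denser. Ddit4, an inhibitor of mTOR signaling, was higher by 0.53 (limma p of 0.0247), with 0.31 on slide 2 and a blocked limma p of 0.423. Their adjusted limma p-values were 0.598, 0.483 and 0.501. Atf4 itself differed by -0.03 (SE 0.14), from 5 mice per genotype because its spot was an outlier in Floxed 1 and LKO 4, and the median of the 17 genes was 0.0066.

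**Figure D5:**
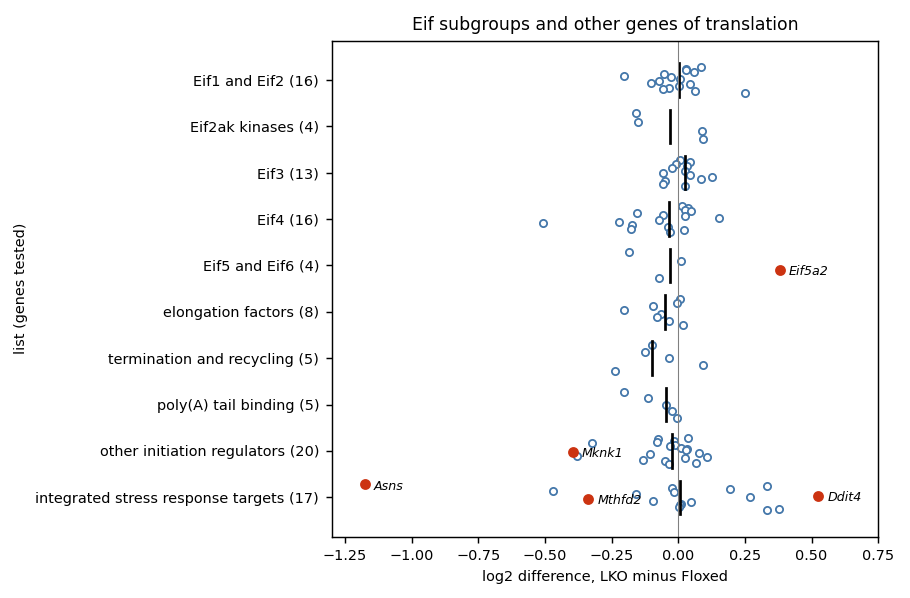
Log2 difference, LKO minus Floxed, of each tested gene in the 5 Eif subgroups and 5 further lists, with list medians as black bars and genes at an unadjusted limma p below 0.05 as filled red points. Medians of all lists lie between -0.10 and 0.02, and 4 of the 5 red points are not Eif genes.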

How the data were processed

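Liver RNA of 6 Floxed and 6 LKO mice was measured on 12 arrays with 1 mouse each, so n counts mice. For each spot the authors deposited a background-corrected processed intensity (Agilent Feature Extraction, 9.5.1.1 in the submitters' processing notes and 10.7.1.1 per the file headers), not normalized between arrays. They also deposited a table of quantile-normalized intensity. RNA isolation is described differently in the labels (TRIzol and a Promega column) and the methods (RiboPure), and which was used is not known.

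The log2 of the processed intensity was quantile normalized over the arrays, outlier spots (0.298%) were set missing, spots of a probe were averaged, and a probe was kept if its signal was well above background in all 12 mice (20404 of 39429), in place of the detection p-values of the study's methods, which were not used here. Of 28389 probes with a RefSeq accession, 94.3% matched a symbol (GRCm38.p6 table). The array was designed on another build, so probe positions are not given. The brightest kept probe represented a gene. Genotypes were compared with limma 3.58.1 in R 4.3.3 (lmFit, eBayes, no covariates), p-values were adjusted by Benjamini-Hochberg over 16916 genes, and the code was tested on simulated data. The number of arrays limits the precision. Slides came with the array data. Between 21614 and 24252 probes per array were well above background.

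The members and lists were chosen with earlier results of these data known. Full values were given for called members, for the highest and lowest difference in each subgroup and for 19 members fixed by role. Other members were named after their values were seen. Alternatives covered scaling, background correction, the authors' table, the filter, outliers, probe choice, thresholds, the methods' t-test, slide, replicate number and each array left out. Leaving out LKO 1 and LKO 2 together was added after seeing the data.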

Additional observations from a re-analysis of the deposited data

Results flagged for a closer look

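In 10 of 110 groups of 6 mice tested for a single stray value, the highest or lowest mouse stood apart from the other 5 by Dixon's criterion. Of the 110 groups, 106 were of Eif genes, and all 10 flagged groups were among these. The nominal rate is 1 in 20, or 5.5. Strays over all genes were counted by mouse, and the shares of the 6 mice of a group add up. A share of 1 mouse is thus no rate per group, and whether 10 exceeds the rate over all genes was not tested. Over all genes, a mouse was a low stray in 0.13% (LKO 6) to 1.85% (LKO 5). It was a high stray in 0.118% (LKO 6) to 1.83% (LKO 5). Floxed 1 was the low mouse in 5 of the 10 groups, at 12.06 for Eif1ad, 9.56 for Eif3e, 10.45 for Eif3f, 9.56 for Eif3i and 7.94 for Eif4a3. That is 9.43% of the Eif genes, while Floxed 1 was a low stray in 1.46% of all genes. Floxed 3 was low for Eif2s1 at 10.79, and LKO 5 was low for Eif4ebp2 at 11.41. High stray values were found in LKO 6 for Eif4b (11.54), in Floxed 6 for Eif4e3 (6.03) and in Floxed 4 for Eif5 (12.75).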

How the results depend on the processing

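The number of Eif genes called was 1 over all mice, and it stayed at 1 with 75th percentile scaling, the authors' table, at least 6 arrays above background, outlier spots kept, probe means, the slide as a block and slide 2 alone, although with the slide in the fit or alone the gene was Eif4ebp3 and not Eif5a2. It was 4 with normexp (Eif2a, Eif2s3y, Eif4b and Eif5a2), 2 without a filter on dim probes, 2 by the methods' t-test (Eif2b4 and Eif5a2; 0 after Benjamini-Hochberg), 2 without LKO 1 and LKO 2, and 0 with the adjusted p or a log2 fold change of at least 1. Leaving out 1 array at a time gave 0 to 3. Eif5a2 was lost without Floxed 3, 4 or 6 or LKO 3, 5 or 6, with differences of 0.28 to 0.45 over all 12 omissions. Eif4ebp3 passed without Floxed 2 (-0.64), LKO 3 (-0.61) or LKO 6 (-0.68). The mice were littermates, and the titles give consecutive animal numbers to the mice of each same-numbered pair. The labels do not say that a shared number marks a shared litter. Deviations correlated over 0.1 in 3 of the 6 same-numbered pairs (range -0.24 to 0.32), and the numbers were not taken as pairs. The mice of each such pair lay on different slides, so the correlations cannot decide whether they shared a litter. With the replicate block 0 Eif genes were called (Eif5a2 p of 0.0645 in limma), and Phgdh stayed at -0.48 (p of 0.00326), lower in LKO in all 6 same-numbered pairs. Over all genes the calls were 1413, but 317 with the slide as a block, 512 on slide 2 alone, 2791 without a filter, 2172 without LKO 1 and LKO 2 and 88 with a log2 fold change of at least 1. Phgdh was -0.34 with 75th percentile scaling (limma p of 0.0601), -0.19 with normexp (p of 0.0194), -0.055 with the slide as a block (p of 0.801) and on slide 2 alone (p of 0.752), -0.48 under the adjusted and fold thresholds, which it missed, and -0.60 to -0.38 with 1 array left out. The median Eif difference lay between -0.03 and 0.02 throughout. Of 650 values of 25 named Eif genes under 26 settings, 11 lost and 12 gained the unadjusted call, none of the called ones turned its direction, and 54 uncalled ones changed sign. The cause was not tested in any of these cases. The slide block rests on 2 mice per genotype.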
